A study of Mus musculus with 60 samples.

Results

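The lungs of 5 male Balb/c mice taken 24 h after inhalation of SPIO nanoparticles were compared with the lungs of 5 sham control mice taken at the same time, which together make up 10 of the 60 arrays of the series. SPIO nanoparticles are carboxylated superparamagnetic iron oxide particles, and the exposed mice had breathed their aerosol nose-only for 4 h. Sham mice had been restrained in the same way for 4 h and had breathed humidified air with helium and oxygen that carried no particles. Every other group also held 5 male Balb/c mice, namely SPIO and sham mice at 0, 6, 48, 96 and 168 h after the exposure, and the mice of 96 h had also been in plethysmographs and those of 168 h in metabolism cages on a liquid diet. Each array held the RNA of the right diaphragmatic lobe of 1 mouse. The sources used here give neither the day of exposure nor the hour of necropsy, mouse age or hybridization batch, and these cannot be told apart from the exposure. The comparison asks which lung transcripts differed 1 day after the particles were inhaled. Because the 24 h sham arrays stood apart from the sham arrays of other times, many differences are given beside the other 5 sham groups (25 arrays). Some are also given beside the other 5 SPIO groups (25 arrays). A difference given without them is from the 24 h sham arrays alone and may rest on where those arrays lay.

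Inhaled particles that reach the alveoli are taken up by alveolar macrophages through scavenger and Fc receptors and are carried to the lysosome, where iron oxide can dissolve. Epithelial cells and macrophages that meet particles release chemokines, which draw neutrophils and then monocytes from the blood, and the iron that is set free is held by ferritin, exported by ferroportin or handled by heme oxygenase and its partners. Heat shock chaperones refold proteins and are switched on by heat shock factor in many kinds of stress, including restraint and warming.

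All values are log2 values on the scale of RMA, on which a difference of 1 is a doubling of signal, and a gene's differences can be compared with each other but its level cannot be set against another gene's level. The 60 arrays were alike in the median of all probe sets (5.53 to 5.64). Their interquartile range ran from 3.89 to 4.07 in the 24 h SPIO arrays and from 3.73 to 4.03 in the 24 h sham arrays. The 24 h sham mean of 3.85 was the lowest of the 12 groups. Lung markers were high in both groups, with surfactant protein C (Sftpc) at a mean of 14.93 in 24 h SPIO lungs and 14.92 in 24 h sham lungs and the airway secretory protein Scgb1a1 at 15.01 and 15.04 in the same order. RNA of neighbouring tissue varied within each group, the heart myosin Myh6 from 4.16 to 12.14 in the 24 h SPIO arrays and from 8.78 to 11.79 in the 24 h sham arrays, and 0 of 29 heart and muscle genes and 0 of 17 hepatocyte genes were called. The fat hormone Adipoq lay between 3.58 and 9.16 in the 24 h SPIO arrays and between 3.96 and 7.73 in the 24 h sham arrays. Array 3 of the 24 h SPIO group stood apart in its Y-linked genes, whose mean was 5.18 there and 6.34 to 6.77 on the other 9 arrays, although all mice are labelled male. Its Xist value of 5.38 lay within the range of the other 9 arrays (5.17 to 5.97). Dropping array 3 left 3570 of the 24 h calls in place. Some counts below are also given without that array, and counts given without such a value may still rest on it. Array 1 of the 0 h sham group, which enters the other sham groups, held the liver gene Alb at 14.02 and Xist at 11.94, and left 4317 of the 24 h calls in place when it was dropped.

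At 24 h, 3691 of 18193 genes were higher in SPIO lungs (20.3%) and 665 were lower (3.66%), in limma's test over the 12 groups with Benjamini-Hochberg adjustment and an adjusted p under 0.05. The changes were small, with a median size of 0.35 among the higher genes and 0.44 among the lower genes, and 352 higher and 176 lower genes reached 1.5-fold. The excess of higher calls depended on how arrays were put on 1 scale. Centring here set each array on the median of its 18193 genes, not on the median of all probe sets. After it, 827 genes were higher (4.55%) and 2130 lower (11.7%). The share of higher genes was 28.0% in place of 84.7%, and the median difference of all genes was -0.09 in place of 0.09. Arrays were separately centred on the median of all probe sets and scaled to the same interquartile range. On that scale 2215 genes were higher and 950 lower (70.0% higher). Small differences near the median of all genes therefore have no settled direction, and the lists below are given with their counts after centring. The SPIO and sham values did not overlap for 2070 genes (11.4%), of which 1634 were called higher and 221 called lower.

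The difference at 24 h was made up of movements of both groups away from the other sham groups. The 24 h sham arrays differed from the other 5 sham groups in 1348 genes that were higher (7.41%) and 3881 that were lower (21.3%), whereas the 24 h SPIO arrays differed from those groups in 594 genes that were higher (3.26%) and 378 that were lower (2.08%). Centring turned both of these splits, to 3927 higher and 1208 lower for the sham arrays and 241 higher and 632 lower for the SPIO arrays. With arrays scaled to the same interquartile range, 2431 genes were higher and 1798 lower in the sham arrays, and with all probe sets 1117 probe sets were higher and 2097 lower in the SPIO arrays. Whether most genes of either group lay above or below the other sham groups is thus not settled. Taken 1 group at a time, the 24 h sham arrays differed from those of 0, 6, 48, 96 and 168 h in 3929, 3518, 31, 4862 and 5877 genes, so that the 48 h sham group was the nearest. Of the 3691 higher genes, the 24 h SPIO mean lay above the range of the other 5 sham means for 1505 and within it for 2182, while the 24 h sham mean lay below that range for 2817 (1592 on the centred scale). Of the 665 lower genes, the 24 h SPIO mean lay below the range for 361 and within it for 303, and the 24 h sham mean lay above it for 465. A gene was called against both sets of sham arrays where it passed the threshold at 24 h and against the mean of the other 5 sham groups in the same direction, which held for 417 higher (2.29%) and 185 lower genes (1.02%). Both comparisons use the same 5 exposed arrays, so this is a way to choose genes and not a second test. Its split turned as well, to 106 higher and 420 lower genes after centring, 615 and 1202 probe sets with all probe sets and 400 and 451 genes with probe sets averaged per gene. Without SPIO array 3 it held for 161 higher and 92 lower genes, and without SPIO array 2 for 143 higher and 157 lower genes.

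**Figure D1:**
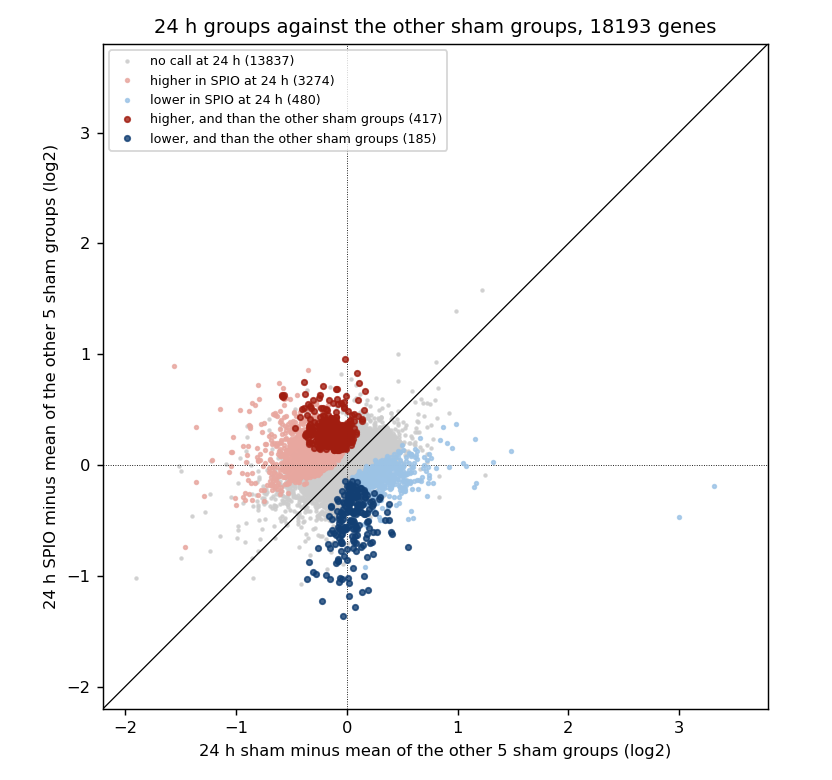
Each point is 1 of 18193 genes, with the 24 h sham mean minus the mean of the other 5 sham groups on the x axis and the 24 h SPIO mean minus the same mean on the y axis, both in log2. Points above the diagonal were higher in 24 h SPIO lungs than in 24 h sham lungs. The 417 higher and 185 lower genes called against both sets of sham arrays (dark) lie off the horizontal axis, and Hspa1b, at 3.32 on the x axis and -0.19 on the y axis, is the point farthest to the right.

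Against the other 5 SPIO groups, 23 genes differed in the 24 h SPIO arrays (0.126%), 15 higher and 8 lower, a count that was 8, 9, 14 and 13 without SPIO arrays 1, 2, 3 and 4. The difference between SPIO and sham at 24 h differed from the mean difference of the other 5 times for 838 genes (4.61%). That count was 27 without sham array 3 and 1770 without sham array 2. It was 148, 301, 456 and 486 without SPIO arrays 2, 3, 1 and 4.

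**Figure D2:**
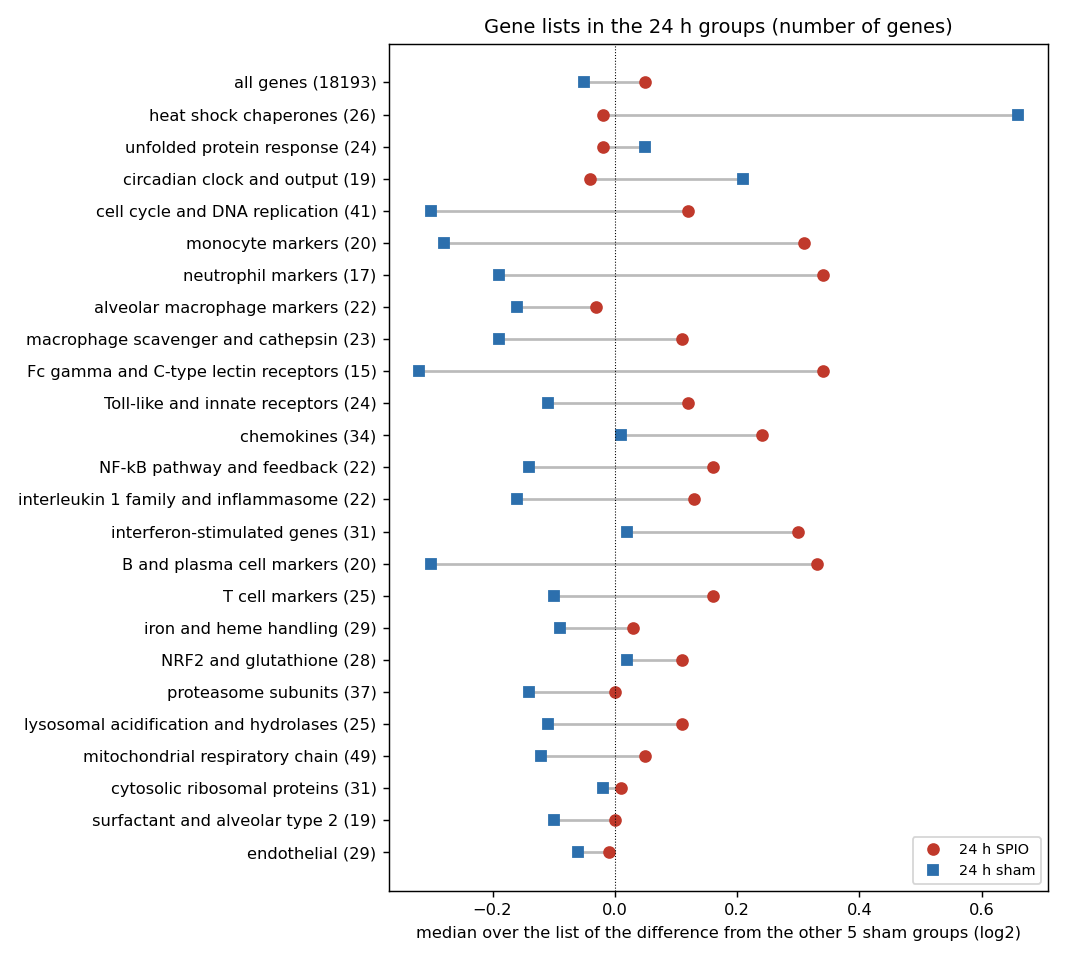
Median over the members of 24 gene lists and over all genes of the difference from the mean of the other 5 sham groups, in log2, for 24 h SPIO (circles) and 24 h sham (squares). Heat shock chaperones lie at -0.02 in 24 h SPIO and 0.66 in 24 h sham, while the medians over all genes are 0.05 and -0.05.

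Heat shock chaperones were lower in 24 h SPIO lungs than in 24 h sham lungs, with 18 of 26 genes lower (69.2%, against 3.66% of all genes) and 0 higher and a median of -0.63, against 0.09 over all genes. After centring, 21 of the 26 were lower. In 24 h sham lungs 20 of the 26 genes were above the other 5 sham groups (7.41% of all genes were) and 1 was below (21.3%). In 24 h SPIO lungs 0 of 26 differed from those groups (3.26% of all genes were higher and 2.08% lower). Summed up as the mean of the 26 genes per array, the level was 9.85 to 10.57 in 24 h SPIO lungs and 10.74 to 11.21 in 24 h sham lungs. The means at 0, 6, 48, 96 and 168 h were 9.91, 10.06, 9.77, 9.55 and 9.57 in SPIO lungs. In sham lungs they were 10.53, 9.83, 10.52, 9.94 and 9.90, so SPIO lungs were lower at each of these times except 6 h.

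Hspa1b and Hspa1a encode the stress-induced Hsp70 and are near-identical copies, so their signals cannot be fully separated. Hspa1b read 11.50, 9.73, 9.47, 9.98 and 10.51 on the 24 h SPIO arrays and 13.89, 13.45, 14.09, 13.97 and 13.32 on the 24 h sham arrays, a difference of -3.51 (SE 0.53, adjusted p = 9.39e-06). Hspa1a read 9.50, 7.45, 7.90, 8.39 and 8.79 on the 24 h SPIO arrays and 12.38, 11.92, 12.25, 12.36 and 10.49 on the 24 h sham arrays, a difference of -3.47 (SE 0.52, adjusted p = 8.78e-06). All 5 sham values of Hspa1b lay above 13 and all 5 SPIO values below 12, and sham array 5 was the lowest of its group in both genes. The group means of Hspa1b at 0, 6, 24, 48, 96 and 168 h were 10.08, 10.80, 10.24, 8.94, 8.07 and 8.67 in SPIO lungs and 12.12, 9.28, 13.74, 12.24, 9.46 and 9.03 in sham lungs. The sham groups of 0, 24 and 48 h were thus the high ones, and the 24 h sham mean was the highest of the 12 groups. SPIO lungs at 24 h lay within the range of the other sham means (9.03 to 12.24), at a difference from their mean of -0.19 (adjusted p = 0.841).

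Cacybp, a chaperone partner that also binds the ubiquitin ligase Siah1, had the smallest p of the list. Its values were 10.61, 9.90, 10.20, 10.01 and 10.27 in 24 h SPIO lungs and 11.28, 11.37, 11.88, 11.91 and 11.29 in 24 h sham lungs, a difference of -1.35 (SE 0.19, adjusted p = 4.51e-06). The J-domain co-chaperone Dnaja1 read 12.37, 11.42, 11.58, 12.004 and 11.94 in 24 h SPIO lungs against 13.18, 13.07, 13.50, 13.38 and 12.83 in 24 h sham lungs, a difference of -1.32 (SE 0.21, adjusted p = 2.34e-05). Neither gene overlapped between the groups, and SPIO array 1 was the highest of its group in both. Hsph1, the Hsp110 nucleotide exchange factor, gave 12.43, 11.14, 11.39, 11.47 and 10.74 in 24 h SPIO lungs and 12.44, 12.49, 13.27, 13.16 and 12.58 in 24 h sham lungs, a difference of -1.35 (SE 0.39, adjusted p = 0.00838). Here the groups were parted by a narrow gap, because SPIO array 1 nearly reached sham array 1. Ahsa2, a relative of the Hsp90 activator, read 10.51, 9.51, 9.59, 9.59 and 9.35 on SPIO arrays and 10.85, 10.76, 11.42, 11.25 and 10.76 on sham arrays at 24 h and differed by -1.30 (SE 0.28, adjusted p = 0.000612). SPIO array 1 again stood above the rest of its group.

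The cytosolic Hsp90 gene Hsp90aa1 averaged 12.81 ± 0.48 in 24 h SPIO lungs and 13.89 ± 0.24 in 24 h sham lungs (SD, n = 5 each), a difference of -1.08 (SE 0.21, adjusted p = 0.000202). Its SPIO mean lay below all of the other sham means (13.08 to 13.65), at -0.48 (adjusted p = 0.0657) from their average, which did not pass the threshold. The Hsp90 co-chaperone Chordc1 differed by -1.09 (SE 0.19, adjusted p = 7.42e-05), the Hsp70 co-chaperone Dnajb1 by -0.94 (SE 0.21, adjusted p = 0.00104), the nucleotide exchange factor Bag3 by -0.72 (SE 0.16, adjusted p = 0.00107) and the constitutive Hsp70 gene Hspa8 by -0.51 (SE 0.12, adjusted p = 0.00171). The small heat shock protein Hspb1 did not pass, at -0.11 (SE 0.23, adjusted p = 0.794), and its groups overlapped. The called genes of this list that are given with values kept their calls without each of the 10 arrays in turn.

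**Figure D3:**
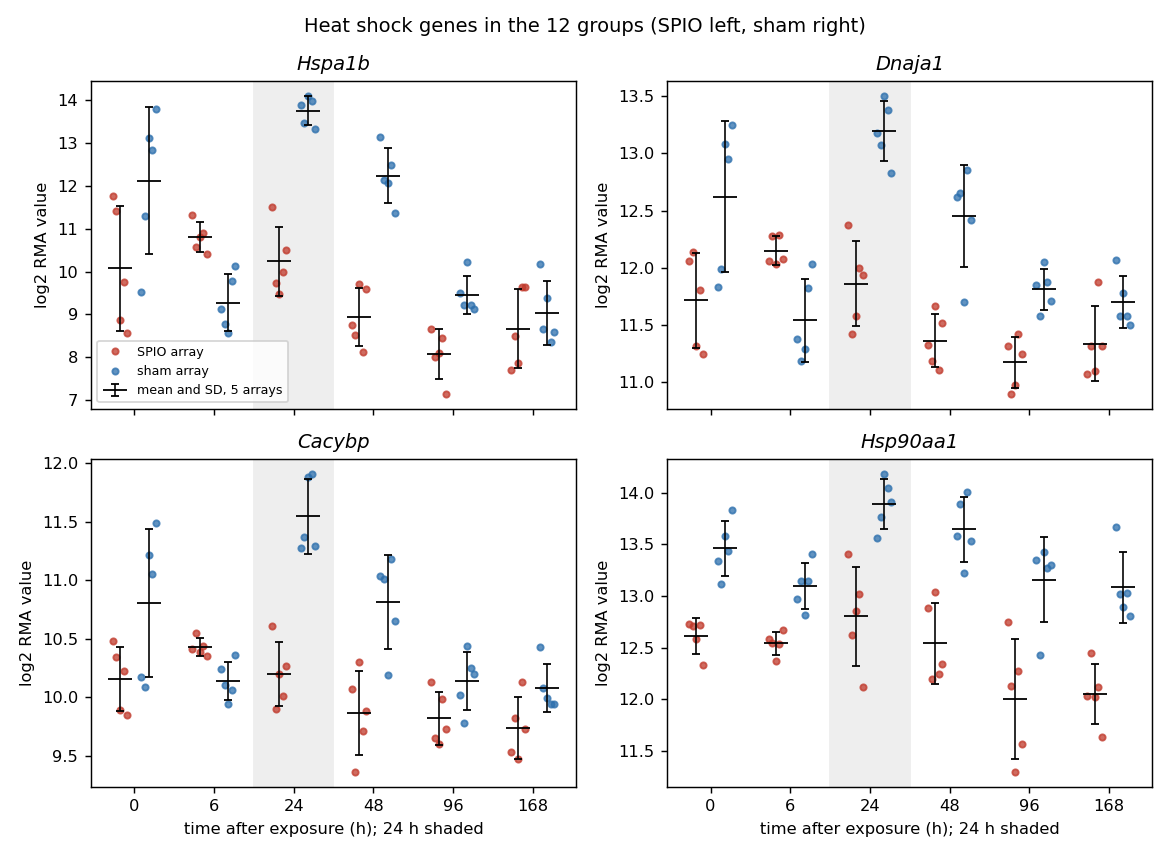
Log2 RMA values of 4 heat shock genes on all 60 arrays, by time after exposure in h, with SPIO arrays (red) left of sham arrays (blue) at each time and the mean and SD of 5 arrays as black bars. At 24 h the sham values of Hspa1b lie between 13.32 and 14.09 and the SPIO values between 9.47 and 11.50, and the sham groups of 0 and 48 h are the next highest.

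The promoters of 2 of these genes are shown because the list moved together and because heat shock factor binds inverted nGAAn units. The letters GAANNTTC were searched on both strands in RefSeq promoters (GRCm38.p6), which hold the 250 bases before each start and a short stretch after it, and 12 of 23 list members with a promoter held them (52.2%), against 7.60% of 14452 genes. Of 15 members that were lower at 24 h and had a promoter, 9 held them. Only the 250 bases before the start are printed, with the match in capitals, from chr17:34959239-34959488 (minus strand) for Hspa1b and chr4:40722218-40722467 (plus strand) for Dnaja1.
Hspa1b: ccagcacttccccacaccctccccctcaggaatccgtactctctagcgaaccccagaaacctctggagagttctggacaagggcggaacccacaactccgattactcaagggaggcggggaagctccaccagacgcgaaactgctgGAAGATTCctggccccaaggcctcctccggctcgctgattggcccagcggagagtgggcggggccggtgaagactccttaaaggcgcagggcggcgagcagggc
Dnaja1: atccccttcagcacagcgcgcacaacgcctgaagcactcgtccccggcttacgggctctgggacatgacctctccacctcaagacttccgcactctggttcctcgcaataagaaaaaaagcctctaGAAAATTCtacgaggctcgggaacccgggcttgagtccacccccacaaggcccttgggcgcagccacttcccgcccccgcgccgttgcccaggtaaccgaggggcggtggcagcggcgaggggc
The matches are a description of the letters only. Cacybp held no match in the 250 bases before its start, and Hsph1 is among the 12 through a match after its start.

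Of 24 genes of the unfolded protein response, which adjusts the folding capacity of the endoplasmic reticulum, 6 were lower (25%, against 3.66% of all genes) and 1 was higher, and 10 were lower with 0 higher after centring. The 1 higher gene was Atf6, a membrane sensor of the pathway. The ER co-chaperone Dnajb9 read 10.76, 10.56, 10.78, 10.57 and 10.72 in 24 h SPIO lungs and 11.17, 11.25, 11.43, 11.18 and 11.30 in 24 h sham lungs, without overlap, a difference of -0.59 (SE 0.09, adjusted p = 8.78e-06). Manf, a secreted ER stress factor, gave 11.02, 10.70, 10.80, 10.57 and 10.38 in 24 h SPIO lungs and 11.11, 11.37, 11.26, 11.13 and 11.18 in 24 h sham lungs, a difference of -0.52 (SE 0.14, adjusted p = 0.00538). SPIO array 1 came closest to the sham values of Manf but stayed below them. Xbp1, the transcription factor of the pathway, differed by -0.25 (SE 0.07, adjusted p = 0.00894), and its main chaperone Hspa5 by -0.25 (SE 0.10, adjusted p = 0.0668), which did not pass. Dnajc3, an inhibitor of eIF2 alpha kinases, was the only member called against both sets of sham arrays, with means of 10.96 ± 0.33 in 24 h SPIO lungs and 11.52 ± 0.24 in 24 h sham lungs (SD, n = 5 each) and 11.44 to 11.67 in the other sham groups, although SPIO arrays 1, 2 and 4 overlapped with sham array 1.

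Clock genes and their outputs were lower in 5 of 19 cases (26.3%, against 3.66% of all genes) and higher in 1, and 6 were lower with 0 higher after centring. The lower count was 2 without SPIO array 4 and 3 without any 1 of SPIO arrays 2, 3 and 5 and sham arrays 1, 2, 3 and 4. Ciart, a clock-controlled repressor, read 6.97, 6.42, 6.59, 6.51 and 6.26 in 24 h SPIO lungs against 7.44, 7.18, 7.17, 6.80 and 7.53 in 24 h sham lungs, with 1 overlapping pair of arrays and a difference of -0.68 (SE 0.16, adjusted p = 0.0017). The output factor Hlf gave 8.50, 8.44, 7.70, 8.46 and 7.76 in 24 h SPIO lungs and 8.68, 9.06, 9.02, 9.05 and 9.07 in 24 h sham lungs, a difference of -0.80 (SE 0.20, adjusted p = 0.00229), and sham array 1 was the lowest sham array but lay above all SPIO arrays. The core activator Arntl (Bmal1) averaged 6.60 ± 0.25 in 24 h SPIO lungs and 5.88 ± 0.29 in 24 h sham lungs (SD, n = 5 each), while the other sham groups ranged over 6.44 to 8.67. Nr1d2, a repressor in the same loop, averaged 11.68 ± 0.26 in 24 h SPIO lungs and 12.15 ± 0.14 in 24 h sham lungs (SD, n = 5 each), with other sham means of 10.14 to 12.04. The differences at 24 h were 0.72 (SE 0.27, adjusted p = 0.0398) for Arntl and -0.47 (SE 0.16, adjusted p = 0.0282) for Nr1d2, and both calls depended on single arrays. Arntl was no longer called without SPIO array 3 (0.64, adjusted p = 0.1) or 4 (0.68, adjusted p = 0.0798), or without sham array 2 (0.59, adjusted p = 0.11), 3 (0.77, adjusted p = 0.0512), 4 (0.75, adjusted p = 0.0539) or 5 (0.75, adjusted p = 0.0576). Nr1d2 was no longer called without SPIO array 3 (-0.44, adjusted p = 0.0606), 4 (-0.43, adjusted p = 0.0721) or 5 (-0.42, adjusted p = 0.0691), or without sham array 1 (-0.43, adjusted p = 0.0656) or 2 (-0.44, adjusted p = 0.0542). The hour at which each lung was taken is not given, so time of day and exposure cannot be told apart in these genes. The promoter of Ciart (chr3:95882229-95882478, minus strand, GRCm38.p6) is shown for its 3 copies of the E-box CACGTG, the letters that the clock activators recognise, in capitals; 5 of 17 clock genes with a promoter held the E-box (29.4%), against 10.2% of all genes, and Ciart was the only 1 of the 4 called genes with a promoter that did.
Ciart: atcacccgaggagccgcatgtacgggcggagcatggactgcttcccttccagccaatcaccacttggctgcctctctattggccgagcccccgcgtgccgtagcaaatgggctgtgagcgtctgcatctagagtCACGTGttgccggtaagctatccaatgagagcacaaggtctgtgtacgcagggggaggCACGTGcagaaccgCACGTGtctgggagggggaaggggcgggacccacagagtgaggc
The D-box letters TTATGNAA were in 2 of the 17 promoters (11.8%), against 2.88% of all genes, and in 0 of the 4.

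Genes of the cell cycle and DNA replication were higher in 24 h SPIO lungs, with 25 of 41 higher (61.0%, against 20.3% of all genes) and 0 lower and a median of 0.42, against 0.09 over all genes. After centring, 14 were higher and 0 lower. In this list too the 24 h sham arrays lay away from the other sham groups, with 23 of 41 lower than those groups and 1 higher. Over all genes 21.3% were lower and 7.41% higher. After centring, 16 were lower and 3 higher, against 1208 lower and 3927 higher of 18193 genes. In 24 h SPIO lungs 4 of 41 were higher than in the other sham groups, against 3.26% of all genes. The per-array mean of the list was 6.33 to 6.61 in 24 h SPIO lungs and 5.92 to 6.12 in 24 h sham lungs, and the means of the other sham groups ran from 6.17 to 6.60. Cdt1, Mcm5 and Cdc6, which act together in licensing origins, were the 3 members called against both sets of sham arrays, a count that was 1 without SPIO array 2. Of all genes, 2.29% were called higher against both sets.

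Cdt1, which loads the replicative helicase onto origins, read 8.45, 8.69, 8.36, 8.53 and 8.50 in 24 h SPIO lungs and 7.68, 7.95, 7.82, 7.48 and 7.59 in 24 h sham lungs, a difference of 0.80 (SE 0.11, adjusted p = 2.18e-06). Mcm5, a subunit of that helicase, gave 7.95, 8.31, 7.96, 7.87 and 8.03 in 24 h SPIO lungs and 7.17, 7.52, 7.31, 7.18 and 7.04 in 24 h sham lungs, a difference of 0.78 (SE 0.13, adjusted p = 2.59e-05). For both genes every SPIO value lay above every sham value, and the SPIO means also lay above the other sham means of 7.96 to 8.37 and 7.32 to 7.89, at 0.34 and 0.48 from their average. Rrm2, the small subunit of ribonucleotide reductase, read 7.29, 7.07, 6.54, 7.11 and 7.38 in 24 h SPIO lungs and 5.61, 6.15, 6.03, 5.54 and 5.64 in 24 h sham lungs, a difference of 1.28 (SE 0.21, adjusted p = 2.67e-05). Its SPIO mean lay within the other sham means (6.27 to 7.31) and its sham mean below them. The group means of Rrm2 at 0, 6, 24, 48, 96 and 168 h were 6.66, 6.15, 7.08, 7.47, 7.58 and 7.13 in SPIO lungs and 7.03, 6.27, 5.80, 6.39, 7.11 and 7.31 in sham lungs, so the separation at 24 h came with the lowest sham mean of the series.

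Topoisomerase Top2a read 6.79, 6.95, 6.28, 6.70 and 7.12 in 24 h SPIO lungs and 5.54, 6.16, 5.62, 5.39 and 5.31 in 24 h sham lungs, a difference of 1.16 (SE 0.23, adjusted p = 0.000277). The proliferation marker Mki67 gave 7.03, 6.94, 6.29, 6.82 and 6.86 in 24 h SPIO lungs and 5.54, 5.77, 6.24, 5.40 and 5.22 in 24 h sham lungs, a difference of 1.16 (SE 0.27, adjusted p = 0.00171). SPIO array 3 was the lowest SPIO array in both, and in Mki67 it lay just above sham array 3. Cep55, which acts in the last step of cell division, read 5.58, 5.56, 4.95, 5.52 and 5.91 in 24 h SPIO lungs against 3.93, 4.52, 4.55, 3.96 and 4.26 in 24 h sham lungs and differed by 1.26 (SE 0.29, adjusted p = 0.00107). Its SPIO mean again fell within the other sham means (4.75 to 6.39). The 24 h sham values of Cep55 all lay below the array medians of all probe sets (5.53 to 5.64), where signal may be near background. Thymidine kinase Tk1 differed by 0.87 (SE 0.17, adjusted p = 0.000197) and the large reductase subunit Rrm1 by 0.38 (SE 0.07, adjusted p = 9.8e-05).

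The promoters of Top2a (chr11:99024190-99024439, minus strand) and Mcm5 (chr8:75109259-75109508, plus strand), both in GRCm38.p6, are shown because the CCAAT box and the E2F site are known elements of cell cycle genes. The CCAAT box, searched as CCAAT on both strands, was in 25 of 35 promoters of the list (71.4%), against 42.0% of all genes. An E2F site, searched as TTTGGCGC or TTTCCCGC on both strands, was in 8 of the 35 (22.9%), against 2.77% of all genes. Of the 35 members, 23 were higher at 24 h. These 23 included all 8 with an E2F site and 16 of the 25 with a CCAAT box. Capitals mark the CCAAT matches of Top2a, 6 in number and ATTGG where they lie on the other strand, and the E2F match of Mcm5.
Top2a: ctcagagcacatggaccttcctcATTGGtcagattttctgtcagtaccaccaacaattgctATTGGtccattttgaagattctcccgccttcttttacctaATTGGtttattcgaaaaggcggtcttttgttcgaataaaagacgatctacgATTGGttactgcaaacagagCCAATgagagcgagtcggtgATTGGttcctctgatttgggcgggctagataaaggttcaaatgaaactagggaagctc
Mcm5: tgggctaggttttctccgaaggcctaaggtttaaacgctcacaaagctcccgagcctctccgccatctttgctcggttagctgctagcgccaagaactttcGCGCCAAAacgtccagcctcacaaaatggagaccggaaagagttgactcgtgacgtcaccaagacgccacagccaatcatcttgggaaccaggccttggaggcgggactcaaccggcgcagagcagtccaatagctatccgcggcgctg

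Monocyte markers were higher in 13 of 20 cases (65.0%, against 20.3% of all genes) and lower in 0, with a median of 0.48, against 0.09 over all genes, and after centring 8 were higher and 1 lower. In bulk lung tissue a change in the number of cells of a type and a change in RNA per cell cannot be told apart. Against the other sham groups, 10 of the 20 were lower in 24 h sham lungs, against 21.3% of all genes. In 24 h SPIO lungs 4 were higher, against 3.26%. After centring, 4 were lower and 1 higher in 24 h sham lungs, against 1208 lower and 3927 higher of 18193 genes. Called higher against both sets of sham arrays were 4 of the 20, against 2.29% of all genes. That count was 0 without SPIO array 3 or 5 and 1 without SPIO array 1. The per-array mean of the list was 9.49 to 10.11 in 24 h SPIO lungs and 8.82 to 9.48 in 24 h sham lungs, with means of 9.18 to 9.87 in the other sham groups. Sham array 5 was the highest sham array in all 6 genes given next, and without it 8 markers were higher.

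Ifitm6, an interferon-induced membrane protein of myeloid cells, read 9.65, 7.70, 9.95, 8.32 and 10.40 in 24 h SPIO lungs and 6.79, 5.61, 6.33, 6.28 and 8.72 in 24 h sham lungs, a difference of 2.46 (SE 0.48, adjusted p = 0.00026). The groups overlapped, because SPIO arrays 2 and 4 lay below sham array 5. S100a4, a calcium-binding protein of motile myeloid cells, gave 9.80, 9.45, 10.06, 9.26 and 10.35 in 24 h SPIO lungs and 8.31, 8.87, 8.29, 7.85 and 9.53 in 24 h sham lungs, a difference of 1.21 (SE 0.24, adjusted p = 0.000286). Sham array 5 was again the only sham array within the SPIO range. The SPIO mean of S100a4 lay above the other sham means (8.29 to 9.67), though the 48 and 168 h sham groups, at 9.67 and 9.66, came near it. Plac8, a marker of classical monocytes and other leukocytes, read 10.45, 10.22, 11.15, 9.999 and 10.88 in 24 h SPIO lungs and 9.44, 9.34, 9.10, 8.99 and 10.16 in 24 h sham lungs, a difference of 1.14 (SE 0.24, adjusted p = 0.000435), with 1 sham array inside the SPIO range. The coagulation factor subunit F13a1 differed by 1.65 (SE 0.34, adjusted p = 0.000369), the membrane protein Ms4a6c by 1.25 (SE 0.27, adjusted p = 0.000722) and the chemokine receptor Ccr2, which brings monocytes out of the marrow, by 1.41 (SE 0.39, adjusted p = 0.00558).

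**Figure D4:**
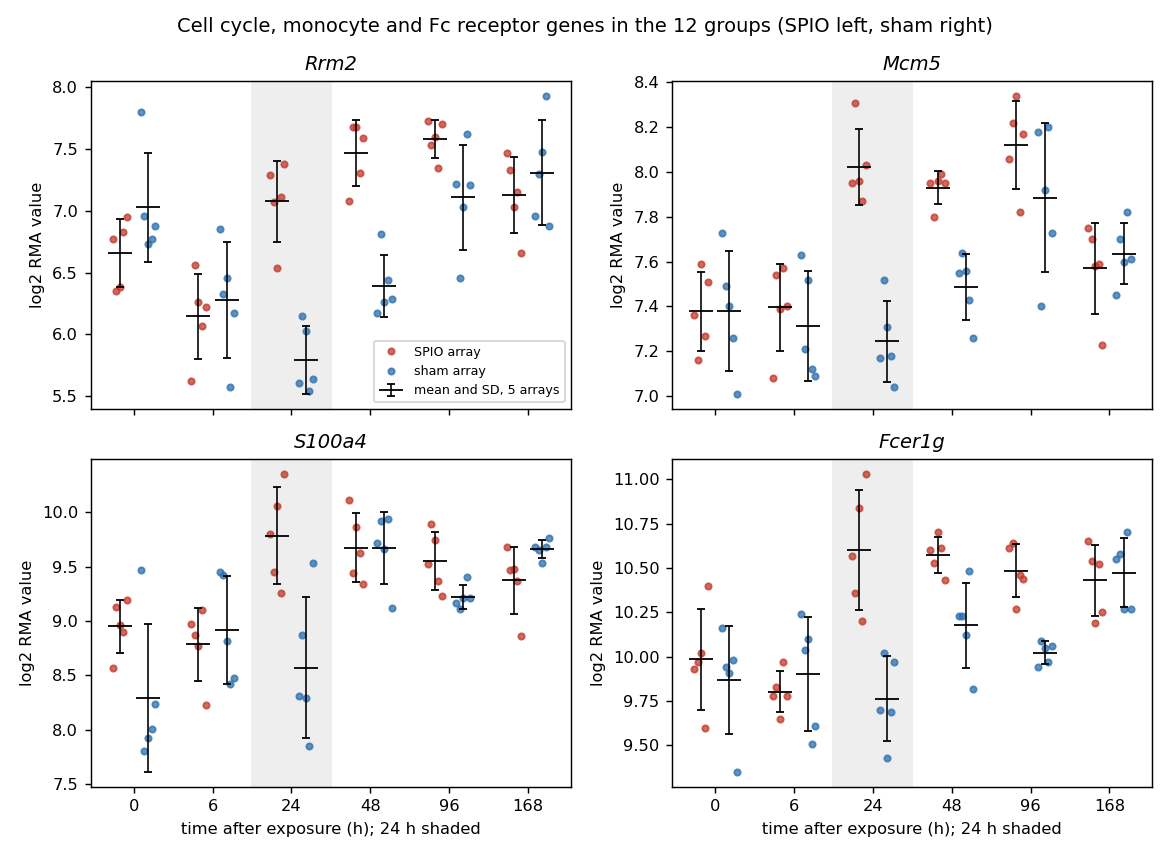
Log2 RMA values of Rrm2, Mcm5, S100a4 and Fcer1g on all 60 arrays by time after exposure in h, with SPIO arrays (red) left of sham arrays (blue) and the mean and SD of 5 arrays as black bars. At 24 h the SPIO values of Rrm2, Mcm5 and Fcer1g lie above all sham values of that time, while in S100a4 1 sham array reaches into the SPIO range.

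Fc gamma and C-type lectin receptors, with which phagocytes bind antibody-coated and glycan-bearing particles, were higher in 10 of 15 cases (66.7%, against 20.3% of all genes) and lower in 0, with a median of 0.71 and 7 higher after centring. Of the 15, 7 were lower in 24 h sham lungs than in the other sham groups (3 after centring), against 21.3% of all genes. In 24 h SPIO lungs 2 were higher than those groups, against 3.26% of all genes. The common signalling chain Fcer1g read 10.57, 10.36, 10.84, 10.20 and 11.03 in 24 h SPIO lungs and 9.70, 10.02, 9.43, 9.69 and 9.97 in 24 h sham lungs, a difference of 0.84 (SE 0.14, adjusted p = 4.75e-05). It was called against both sets of sham arrays, at 0.51 (adjusted p = 0.00263) from the other sham groups. The lectin receptor Clec5a gave 5.07, 4.56, 5.21, 4.52 and 5.03 in 24 h SPIO lungs and 4.06, 4.10, 3.52, 3.37 and 4 in 24 h sham lungs, a difference of 1.07 (SE 0.24, adjusted p = 0.00107), without overlap. All of these Clec5a values lay below the array medians of all probe sets (5.53 to 5.64), where signal may be near background. The inhibitory receptor Fcgr2b differed by 0.71 (SE 0.16, adjusted p = 0.00131) and the kinase Syk, which acts below these receptors, by 0.65 (SE 0.16, adjusted p = 0.00281). Their SPIO means were not called against the other sham groups.

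Scavenger receptor and cathepsin genes of macrophages were higher in 11 of 23 cases (47.8%, against 20.3% of all genes) and lower in 0, and 3 were higher after centring. The count was 6 without sham array 4, 7 without any 1 of SPIO arrays 1, 2 and 3 and sham arrays 1 and 5, and 17 without sham array 2. Of the 23, 9 were lower in 24 h sham lungs than in the other sham groups (3 after centring), against 21.3% of all genes. In 24 h SPIO lungs 4 were higher and 1 lower than those groups, against 3.26% and 2.08% of all genes. Gpnmb, a lysosomal glycoprotein of phagocytes, was the first of them by p and read 8.42, 8.87, 8.68, 8.42 and 8.51 in 24 h SPIO lungs and 7.51, 8.17, 7.66, 7.34 and 7.39 in 24 h sham lungs, a difference of 0.96 (SE 0.13, adjusted p = 1.7e-06). Its 24 h SPIO values all lay above the sham values. Ctsb, the protease cathepsin B, gave 11.69, 11.76, 11.70, 11.69 and 11.66 in 24 h SPIO lungs and 11.11, 11.62, 11.46, 11.36 and 11.26 in 24 h sham lungs, a difference of 0.34 (SE 0.07, adjusted p = 0.000604), with SPIO values close together and sham array 1 the lowest. The scavenger receptor Msr1 differed by 1.20 (SE 0.26, adjusted p = 0.000648) and the lysosomal glycoprotein Cd68 by 0.73 (SE 0.19, adjusted p = 0.00451). Cd68 was 9.83 on sham array 2, above all SPIO arrays.

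Markers of resident alveolar macrophages were not called more often than genes in general, with 4 of 22 higher (18.2%, against 20.3% of all genes) and 0 lower, and 3 were higher and 1 lower after centring. Without sham array 2, which was high in several of them, 7 were higher. The 4 genes were Ccl6, Lpl, Ctsk and Krt79. The chemokine Ccl6 read 12.82, 12.62, 12.79, 12.57 and 12.89 in 24 h SPIO lungs and 11.73, 12.70, 11.91, 11.87 and 12.03 in 24 h sham lungs, a difference of 0.69 (SE 0.14, adjusted p = 0.000366), with sham array 2 among the SPIO values. Lipoprotein lipase (Lpl) gave 12.38, 11.91, 12.34, 11.97 and 12.08 in 24 h SPIO lungs and 11.51, 11.89, 11.48, 11.84 and 11.55 in 24 h sham lungs, a difference of 0.48 (SE 0.12, adjusted p = 0.00306), and 24 h sham lungs differed from the other sham groups by -0.66 (adjusted p = 2.89e-06). Lpl is also made by fat, and of 13 fat genes 2 were higher at 24 h (0 after centring), against 20.3% of all genes. In 24 h sham lungs 6 of these fat genes were lower than in the other sham groups, against 21.3% of all genes. Their summed level per array, as a mean, was 6.23 to 7.45 in 24 h SPIO lungs and 6.08 to 6.81 in 24 h sham lungs, and their part in the difference of Lpl was not tested. The protease Ctsk was called against both sets of sham arrays, at 0.78 at 24 h and 0.69 against the other sham groups, and sham array 2, at 9.09, was above every SPIO array. The defining genes Marco, with 0.36 (SE 0.26, adjusted p = 0.338), and Chil3, with -0.29 (SE 0.15, adjusted p = 0.172), did not pass. Neutrophil markers had a median difference of 0.50, against 0.09 over all genes, with a wide spread between arrays. The mean of the list was 8.28 ± 0.64 in 24 h SPIO lungs and 7.69 ± 0.56 in 24 h sham lungs (SD, n = 5 each). Of the 17 markers, 3 were called higher (17.6%, which is under the 20.3% of all genes), 0 after centring. That count was 0 without SPIO array 5 or sham array 3, 1 without SPIO array 1 or 3 or sham array 2, and 5 without SPIO array 2 or sham array 4 or 5. The calprotectin subunit S100a8, at 13.11 ± 0.83 in 24 h SPIO lungs and 12.24 ± 1.47 in 24 h sham lungs, and the granulocyte growth factor receptor Csf3r, at 9.49 ± 0.63 and 8.97 ± 1.05 in the same order (SD, n = 5 each), did not pass.

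Toll-like and other innate receptors were higher in 11 of 24 cases (45.8%, against 20.3% of all genes) and lower in 0, and 5 were higher and 1 lower after centring. Ly86, the partner of the receptor Cd180, read 9.16, 9.41, 9.57, 9.09 and 9.57 in 24 h SPIO lungs and 8.40, 8.95, 8.25, 7.98 and 8.73 in 24 h sham lungs, a difference of 0.90 (SE 0.17, adjusted p = 0.000178). Tlr1, which senses bacterial lipopeptides, gave 6.09, 6.13, 6.47, 5.68 and 6.34 in 24 h SPIO lungs and 5.62, 5.29, 4.69, 4.95 and 5.23 in 24 h sham lungs, a difference of 0.99 (SE 0.20, adjusted p = 0.000277). Neither overlapped, though SPIO array 4 and sham array 1 lay close together in Tlr1. In both genes the 24 h sham arrays differed from the other sham groups by -0.53 (adjusted p = 0.00258) and -0.54 (adjusted p = 0.00631), and the SPIO arrays were not called against them.

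Of 34 chemokines, 4 were higher (11.8%, under the 20.3% of all genes) and 0 lower, and the count was the same after centring. Against the other sham groups, 6 of the 34 were higher in 24 h SPIO lungs (3.26% of all genes were) and 1 was lower. After centring these counts were 5 and 1. The median difference from those groups was 0.24, against 0.05 over all genes. Ccl9, a monocyte and macrophage chemokine of mice, read 10.34, 9.53, 10.40, 9.89 and 10.12 in 24 h SPIO lungs and 7.90, 8.76, 8.90, 8.19 and 9.72 in 24 h sham lungs, a difference of 1.37 (SE 0.25, adjusted p = 8.9e-05), with sham array 5 above SPIO array 2. The Th2-cell attractant Ccl22 gave 4.88, 5.06, 4.79, 5.08 and 4.85 in 24 h SPIO lungs and 3.90, 4.42, 4.35, 4.58 and 4.36 in 24 h sham lungs, a difference of 0.61 (SE 0.12, adjusted p = 0.000229). Ccl22 did not overlap and was called against both sets of sham arrays, as was Ccl6. All of the 24 h values of Ccl22 lay below the array medians of all probe sets (5.53 to 5.64), where signal may be near background. Ccl17, which shares the receptor of Ccl22, differed by 0.71 (SE 0.19, adjusted p = 0.00414).

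The neutrophil attractants Cxcl1, Cxcl2, Cxcl3 and Cxcl5 were not called at 24 h. Cxcl1 read 7.79, 8.74, 8.25, 8.36 and 8.39 in 24 h SPIO lungs and 7.04, 7.78, 7.81, 7.52 and 8.69 in 24 h sham lungs, a difference of 0.54 (SE 0.29, adjusted p = 0.184). Against the other sham groups, however, 24 h SPIO lungs were higher in Cxcl1 by 1 (adjusted p = 0.00452). The group means of Cxcl1 at 0, 6, 24, 48, 96 and 168 h were 9.76, 9.76, 8.30, 7.61, 7.50 and 7.33 in SPIO lungs and 7.89, 7.38, 7.77, 7.30, 7.20 and 6.76 in sham lungs, so the exposed lungs were high at 0 and 6 h and lower from 24 h on. Cxcl5 averaged 6.60 ± 0.78 in 24 h SPIO lungs and 6.25 ± 1.08 in 24 h sham lungs (SD, n = 5 each), a difference of 0.35 (SE 0.52, adjusted p = 0.685). Both 24 h groups were above the other sham groups in Cxcl5, the SPIO lungs by 1.58 (adjusted p = 0.0129) and the sham lungs by 1.22 (adjusted p = 0.0193). Cxcl2 differed by 0.07 (SE 0.30, adjusted p = 0.905) and Cxcl3 by -0.03 (SE 0.28, adjusted p = 0.953). The macrophage chemokine Ccl3 averaged 5.28 ± 0.27 in 24 h SPIO lungs and 4.75 ± 0.40 in 24 h sham lungs (SD, n = 5 each), a difference of 0.54 (SE 0.22, adjusted p = 0.0666), and the lung chemokine Cxcl15, known as lungkine, differed by 0.01 (SE 0.09, adjusted p = 0.951). Vnn1, which makes pantothenic acid and cysteamine, was higher in 24 h SPIO lungs by 0.63 (SE 0.20, adjusted p = 0.0194), but the call was lost without SPIO array 2 (0.57, adjusted p = 0.0579) and without sham array 5 (0.56, adjusted p = 0.0613).

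Chemokine receptors and adhesion molecules of leukocytes were higher in 12 of 28 cases (42.9%, against 20.3% of all genes) and lower in 0, and 3 were higher and 1 lower after centring. The integrin subunit Itgb7 of gut-homing lymphocytes read 7.74, 8.03, 8.06, 7.92 and 7.86 in 24 h SPIO lungs and 7.34, 7.29, 7.13, 7.18 and 7.24 in 24 h sham lungs, a difference of 0.69 (SE 0.12, adjusted p = 0.000103), without overlap and called against both sets of sham arrays. The T cell receptor for interferon-induced chemokines, Cxcr3, gave 5.92, 6.28, 6.19, 6.27 and 6.01 in 24 h SPIO lungs and 6.06, 5.81, 5.45, 5.49 and 5.47 in 24 h sham lungs, a difference of 0.48 (SE 0.11, adjusted p = 0.0017), with sham array 1 inside the SPIO range.

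Genes of the NF-kB pathway were higher in 13 of 22 cases (59.1%, against 20.3% of all genes) and lower in 0, but only 2 were higher after centring. The TNF receptor Tnfrsf1a read 10.87, 10.99, 11.08, 11.09 and 10.95 in 24 h SPIO lungs and 10.64, 10.52, 10.66, 10.59 and 10.72 in 24 h sham lungs, a difference of 0.37 (SE 0.06, adjusted p = 5.32e-05). Birc3, an inhibitor of apoptosis induced by the pathway, gave 9.82, 9.71, 10.04, 9.59 and 9.96 in 24 h SPIO lungs and 9.19, 9.36, 9.15, 9.31 and 9.47 in 24 h sham lungs, a difference of 0.53 (SE 0.12, adjusted p = 0.000772). Both were free of overlap and small in size, and 24 h sham lungs were below the other sham groups in both. The kinase Ikbke differed by 0.45 (SE 0.10, adjusted p = 0.000812). Called against both sets of sham arrays were 5 members (2.29% of all genes were called higher), 1 without SPIO array 3 and 3 without SPIO array 2 or 5.

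In the interleukin 1 family and the inflammasome, 9 of 22 genes were higher (40.9%, against 20.3% of all genes) and 0 lower, and 4 were higher and 1 lower after centring. The adaptor Pycard (ASC), through which caspase 1 is recruited, read 8.47, 8.52, 8.72, 8.28 and 8.53 in 24 h SPIO lungs and 7.74, 8.02, 7.54, 7.21 and 7.49 in 24 h sham lungs, a difference of 0.90 (SE 0.15, adjusted p = 4.75e-05). P2rx7, the ATP-gated channel that opens ahead of interleukin 1 release, gave 7.34, 7.25, 7.27, 7.48 and 7.64 in 24 h SPIO lungs and 6.95, 6.94, 6.55, 6.89 and 6.67 in 24 h sham lungs, a difference of 0.60 (SE 0.12, adjusted p = 0.000243). The groups did not overlap in either gene. The 24 h sham arrays differed from the other sham groups by -0.55 (adjusted p = 0.000574) in Pycard and by -0.03 (adjusted p = 0.855) in P2rx7.

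Interferon-stimulated genes were higher in 10 of 31 cases (32.3%, against 20.3% of all genes) and lower in 1 (3.23%, against 3.66%), and 6 were higher and 2 lower after centring. The median difference from the other sham groups was 0.30 in 24 h SPIO lungs and 0.02 in 24 h sham lungs. SPIO array 3 was the highest of the 10 arrays in all 6 genes given here. Called against both sets of sham arrays were 6 higher members (2.29% of all genes were), 0 without that array and 3 without SPIO array 2. Usp18, which removes the ubiquitin-like ISG15, read 8.24, 8.57, 8.71, 8.40 and 8.24 in 24 h SPIO lungs and 7.82, 8.08, 7.68, 7.70 and 7.60 in 24 h sham lungs, a difference of 0.65 (SE 0.11, adjusted p = 5.12e-05). The RNA sensor enzyme Oas1a gave 8.14, 8.40, 8.71, 7.89 and 8.27 in 24 h SPIO lungs and 7.73, 7.75, 7.47, 7.50 and 7.94 in 24 h sham lungs, a difference of 0.61 (SE 0.13, adjusted p = 0.000468). Usp18 did not overlap, while in Oas1a sham array 5 lay above SPIO array 4. The nucleic acid sensor Zbp1 differed by 0.72 (SE 0.16, adjusted p = 0.00111) and the antiviral GTPase Mx1 by 0.57 (SE 0.14, adjusted p = 0.00192). The guanylate-binding protein gene Gbp2b read 9.92, 9.96, 10.70, 9.64 and 9.69 in 24 h SPIO lungs and 9.36, 9.24, 9.01, 9.25 and 9.29 in 24 h sham lungs, a difference of 0.75 (SE 0.15, adjusted p = 0.000214), and was also higher than in the other 5 SPIO groups, by 0.52 (adjusted p = 0.0228). Its relative Gbp3 was likewise higher than in the other SPIO groups, by 0.57 (adjusted p = 0.0123), but was not called against 24 h sham lungs, at 0.18 (SE 0.15, adjusted p = 0.42). Against the other SPIO groups, Gbp2b lost its call without SPIO array 1 (adjusted p = 0.0881), 2 (adjusted p = 0.0917) or 3 (0.35, adjusted p = 0.373), and Gbp3 without array 2 (adjusted p = 0.0672) or 3 (0.41, adjusted p = 0.217).

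Markers of B and plasma cells were higher in 11 of 20 cases (55.0%, against 20.3% of all genes) and lower in 0, but after centring 2 were higher and 1 lower, and the count of higher genes was 2 without SPIO array 2, 3 without sham array 3, 4 without sham array 5 and 7 without SPIO array 4 or sham array 4. Mzb1, a chaperone of antibody-making cells, read 7.30, 7.96, 7.87, 7.58 and 7.62 in 24 h SPIO lungs and 7.25, 7.03, 6.95, 7.05 and 6.76 in 24 h sham lungs, a difference of 0.66 (SE 0.17, adjusted p = 0.00418). The B cell coactivator Pou2af1 gave 5.70, 6.89, 6.21, 6.15 and 6.30 in 24 h SPIO lungs and 5.76, 5.21, 4.15, 5.44 and 4.58 in 24 h sham lungs, a difference of 1.23 (SE 0.33, adjusted p = 0.00515), with SPIO array 1 below sham array 1. T cell markers were higher in 7 of 25 cases (28.0%, against 20.3% of all genes) and lower in 0, and 3 were higher after centring and 4 without any 1 of SPIO arrays 2 and 4 and sham arrays 3 and 4. The T cell receptor chain Cd3d read 7.46, 8.06, 7.97, 8.29 and 8.20 in 24 h SPIO lungs and 7.72, 6.90, 6.85, 7.06 and 7.20 in 24 h sham lungs, a difference of 0.85 (SE 0.18, adjusted p = 0.000707). The surface protein Thy1, also found on fibroblasts, gave 6.63, 7.22, 7.08, 7.19 and 6.77 in 24 h SPIO lungs and 6.50, 6.43, 6.50, 6.19 and 6.12 in 24 h sham lungs, a difference of 0.63 (SE 0.17, adjusted p = 0.00482). Cd3d overlapped in 1 pair of arrays, and neither gene was called against the other sham groups. Markers of MHC class II and dendritic cells were higher in 7 of 19 cases (36.8%, against 20.3% of all genes), in 0 after centring, in 2 without SPIO array 2, in 3 without sham array 5 and in 4 without SPIO array 3 or sham array 3.

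Of 29 genes that handle iron and heme, 9 were higher (31.0%, against 20.3% of all genes) and 3 lower (10.3%, against 3.66%), and after centring 2 were higher and 6 lower. The count of higher genes was 5 without SPIO array 2 or sham array 3 and 4 without sham array 5, and that of lower genes was 5 without SPIO array 1 or sham array 5. Slc11a1, which pumps iron and manganese out of the phagosome, read 7.40, 6.82, 7.49, 7.12 and 7.36 in 24 h SPIO lungs and 6.75, 6.71, 6.21, 6.68 and 6.92 in 24 h sham lungs, a difference of 0.58 (SE 0.13, adjusted p = 0.000872). Steap3, an endosomal ferrireductase, gave 6.72, 7.10, 6.30, 6.81 and 6.27 in 24 h SPIO lungs and 7.19, 8.24, 7.43, 7.40 and 7.11 in 24 h sham lungs, a difference of -0.84 (SE 0.19, adjusted p = 0.000975). Slc11a1 overlapped between SPIO array 2 and sham array 5, Steap3 was parted by a narrow gap, and they were called in opposite directions against both sets of sham arrays. Aco1, the iron regulatory protein 1, differed by -0.81 (SE 0.21, adjusted p = 0.00449) with other sham means of 9.41 to 10.13, and the iron-binding lipocalin Lcn2 by 0.82 (SE 0.23, adjusted p = 0.00761). Heme oxygenase 1 (Hmox1) read 8.51, 7.93, 7.94, 7.99 and 8.08 in 24 h SPIO lungs and 8.02, 8.69, 9.45, 8.58 and 9.09 in 24 h sham lungs, a difference of -0.68 (SE 0.18, adjusted p = 0.00458). The SPIO lungs lay with the other sham groups (7.85 to 8.27) and the 24 h sham lungs above them by 0.72 (adjusted p = 0.000159), with SPIO arrays 1 and 5 above sham array 1. Its group means at 0, 6, 24, 48, 96 and 168 h were 9.58, 8.95, 8.09, 8.13, 8.06 and 7.93 in SPIO lungs and 8.03, 7.85, 8.77, 8.27, 7.95 and 8.14 in sham lungs, and the difference at 24 h minus the mean difference of the other times was -1.16 (adjusted p = 0.0049). The ferritin heavy chain Fth1 differed by 0.02 (SE 0.04, adjusted p = 0.77) and did not pass, and neither the transferrin receptor Tfrc, at 0.26 (SE 0.12, adjusted p = 0.102), nor the iron exporter ferroportin (Slc40a1), at 0.20 (SE 0.14, adjusted p = 0.31), passed.

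Targets of NRF2 and genes of glutathione were higher in 7 of 28 cases (25%, near the 20.3% of all genes) and lower in 3 (10.7%, against 3.66%), and 0 were higher and 7 lower after centring. Without SPIO array 3 or sham array 1, 4 were higher. Nfe2l2, which encodes NRF2 itself, read 11.13, 11.01, 10.98, 11.08 and 11.13 in 24 h SPIO lungs and 11.24, 11.36, 11.60, 11.45 and 11.42 in 24 h sham lungs, a difference of -0.35 (SE 0.08, adjusted p = 0.000972). Gclc, the rate-limiting enzyme of glutathione synthesis, gave 11.02, 10.47, 10.13, 10.61 and 9.76 in 24 h SPIO lungs and 10.66, 11.13, 11.74, 10.97 and 11.52 in 24 h sham lungs, a difference of -0.80 (SE 0.18, adjusted p = 0.000973). Catalase (Cat) was also lower, at 11.53 ± 0.34 in 24 h SPIO lungs and 12.29 ± 0.06 in 24 h sham lungs (SD, n = 5 each). The other sham means of Cat ran from 11.66 to 11.99, with the 24 h sham mean above all of them and the SPIO mean below. In Nfe2l2 and Gclc the 24 h sham arrays were above the other sham groups, with differences of 0.31 and 0.45, and the SPIO arrays were not called against those groups.

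Lysosomal pumps and hydrolases were higher in 12 of 25 cases (48.0%, against 20.3% of all genes) and lower in 2, and 6 were higher and 3 lower after centring. Of the 25, 9 were lower in 24 h sham lungs than in the other sham groups, against 21.3% of all genes. In 24 h SPIO lungs 5 were higher and 3 lower than those groups, against 3.26% and 2.08% of all genes. The proton pump subunit Atp6v0a1 read 7.46, 7.76, 7.50, 7.49 and 7.41 in 24 h SPIO lungs and 7.02, 7.31, 6.73, 6.85 and 6.67 in 24 h sham lungs, a difference of 0.61 (SE 0.09, adjusted p = 1.19e-05). Its partner Atp6v0b gave 10.10, 10.38, 10.14, 10.19 and 10.001 in 24 h SPIO lungs and 9.67, 9.79, 9.43, 9.79 and 9.73 in 24 h sham lungs, a difference of 0.48 (SE 0.08, adjusted p = 7.09e-05). Neither overlapped, and the SPIO means were not called against the other sham groups. Prosaposin (Psap), which activates lipid hydrolases, differed by 0.37 (SE 0.07, adjusted p = 0.000209) and was called against both sets of sham arrays, as was the membrane protein Lamp1 with 0.21 (SE 0.04, adjusted p = 0.000441). With arrays scaled to the same interquartile range the difference of Lamp1 was -0.03 (adjusted p = 0.902).

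Proteasome subunits were higher in 17 of 37 cases (45.9%, against 20.3% of all genes) and lower in 3, and 4 were higher and 7 lower after centring. Of the 37, 18 were lower in 24 h sham lungs than in the other sham groups, against 21.3% of all genes. In 24 h SPIO lungs 4 were higher and 3 lower than those groups, against 3.26% and 2.08% of all genes. The immunoproteasome subunit Psmb10 read 10.33, 10.64, 10.80, 10.47 and 10.61 in 24 h SPIO lungs and 10.04, 10.10, 9.94, 10.08 and 9.91 in 24 h sham lungs, a difference of 0.56 (SE 0.10, adjusted p = 4.75e-05). Psmd13, a lid subunit of the regulatory particle, gave 9.34, 9.28, 9.37, 9.25 and 9.20 in 24 h SPIO lungs and 8.82, 9.16, 8.84, 8.74 and 8.65 in 24 h sham lungs, a difference of 0.45 (SE 0.08, adjusted p = 0.00014). Psmb10 was called against both sets of sham arrays and Psmd13 was not. The core subunit Psma7 was lower, with a difference of -0.32 (SE 0.06, adjusted p = 0.000206), and was called against both sets. Of 49 genes of the mitochondrial respiratory chain 16 were higher (32.7%, against 20.3% of all genes) and 0 lower, but 0 were higher and 3 lower after centring, and 8 were higher without sham array 3. In 24 h sham lungs 13 of the 49 were lower than in the other sham groups, against 21.3% of all genes. Ndufs8, a complex I subunit, differed by 0.32 (SE 0.08, adjusted p = 0.00329). In sterol and fatty acid synthesis 9 of 25 were higher (36.0%, against 20.3% of all genes), 2 after centring, 4 without SPIO array 3 and 3 without sham array 5. Mevalonate kinase (Mvk) differed by 0.62 (SE 0.10, adjusted p = 2.45e-05), and its 24 h sham arrays differed from the other sham groups by -0.48 (adjusted p = 1.6e-05). Collagen and matrix genes were higher in 8 of 30 cases and lower in 1 (26.7% and 3.33%, near the 20.3% and 3.66% of all genes), and 3 were higher and 1 lower after centring. Their median was 0.28, against 0.09 over all genes. Of the 30, 16 were lower in 24 h sham lungs than in the other sham groups (9 after centring), against 21.3% of all genes. The count of higher genes was 4 without sham array 1, 4 or 5, 5 without SPIO array 2, 3 or 4, and 14 without sham array 2. The matrix glycoprotein Fbln1 read 9.01, 9.36, 9.01, 9.02 and 8.61 in 24 h SPIO lungs and 7.69, 8.31, 8.62, 8.17 and 7.64 in 24 h sham lungs, a difference of 0.92 (SE 0.19, adjusted p = 0.00041). The membrane protease Mmp14 gave 7.65, 7.83, 7.47, 7.85 and 7.51 in 24 h SPIO lungs and 7.11, 7.53, 7.01, 7.02 and 7.03 in 24 h sham lungs, a difference of 0.52 (SE 0.11, adjusted p = 0.000679). Fbln1 was called against both sets of sham arrays, whereas for Mmp14 the sham lungs of 24 h were the lower ones, at -0.67 (adjusted p = 5.56e-07) from the other sham groups.

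Several further genes were among the largest higher differences without overlap. Histidine ammonia-lyase (Hal) read 6.53, 6.20, 6.28, 6.47 and 6.001 in 24 h SPIO lungs and 4.84, 5.56, 5.03, 4.84 and 5.20 in 24 h sham lungs, a difference of 1.20 (SE 0.21, adjusted p = 7.15e-05), and was also higher than the other sham groups, by 0.62 (adjusted p = 0.0162). Acod1, which makes itaconate in activated macrophages, gave 6.29, 5.11, 6.31, 5.04 and 6.34 in 24 h SPIO lungs and 4.35, 4.12, 4.35, 4.99 and 4.94 in 24 h sham lungs, a difference of 1.27 (SE 0.32, adjusted p = 0.00271). SPIO arrays 2 and 4 were near the highest sham values of Acod1, and its other sham means ranged widely (4.21 to 6.39). The receptor phosphatase Ptpro read 7.25, 7.78, 7.83, 7.05 and 7.54 in 24 h SPIO lungs and 6.55, 6.73, 6.01, 5.95 and 6.61 in 24 h sham lungs, a difference of 1.12 (SE 0.19, adjusted p = 6.08e-05). Ripor2, an inhibitor of the GTPase RhoA, gave 8.56, 8.20, 8.60, 8.23 and 8.85 in 24 h SPIO lungs and 7.998, 7.06, 6.83, 7.50 and 7.31 in 24 h sham lungs, a difference of 1.15 (SE 0.17, adjusted p = 1e-05). The other sham means ran over 6.47 to 7.32 in Ptpro and 7.85 to 8.54 in Ripor2.

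Kctd14 read 7.26, 7.40, 7.65, 7.07 and 6.98 in 24 h SPIO lungs and 6.12, 6.48, 6.12, 6.17 and 5.91 in 24 h sham lungs, a difference of 1.11 (SE 0.14, adjusted p = 2.67e-07). The somatostatin receptor Sstr4 gave 7.22, 7.54, 7.76, 7.31 and 7.37 in 24 h SPIO lungs and 6.80, 5.56, 6.15, 6.85 and 6.29 in 24 h sham lungs, a difference of 1.11 (SE 0.25, adjusted p = 0.00107). Adcyap1r1, the receptor of the neuropeptide PACAP, read 7.04, 6.28, 6.85, 6.74 and 6.09 in 24 h SPIO lungs and 5.45, 5.92, 4.53, 6.05 and 4.97 in 24 h sham lungs, a difference of 1.21 (SE 0.26, adjusted p = 0.000683). In all 3 genes the 24 h sham arrays were lower than the other sham groups, with differences of -0.93, -0.51 and -0.88. Tnfrsf13b (TACI), a receptor of B cells for the survival factors BAFF and APRIL, gave 6.84, 7.64, 7.14, 6.94 and 7.03 in 24 h SPIO lungs and 6.48, 6.21, 5.38, 6.10 and 5.94 in 24 h sham lungs, a difference of 1.09 (SE 0.21, adjusted p = 0.000243). None of the 4 was called in SPIO lungs against the other sham groups.

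The genes given next were among the 12 with the largest higher difference at 24 h of those called against both sets of sham arrays. Emilin2, a matrix protein, read 8.80, 8.01, 9.01, 8.13 and 9.24 in 24 h SPIO lungs and 7.63, 6.88, 6.91, 7.76 and 8.07 in 24 h sham lungs, a difference of 1.19 (SE 0.21, adjusted p = 7.09e-05). Lst1, a transmembrane protein of myeloid cells, gave 9.45, 9.33, 9.70, 8.997 and 10.08 in 24 h SPIO lungs and 9.08, 7.95, 7.73, 8.49 and 9.25 in 24 h sham lungs, a difference of 1.01 (SE 0.22, adjusted p = 0.000707). Both overlapped, with sham array 5 above SPIO array 2 in Emilin2 and sham arrays 1 and 5 above SPIO array 4 in Lst1. Ncf4, the p40 subunit of the phagocyte NADPH oxidase, read 9.52, 8.39, 9.33, 8.56 and 9.65 in 24 h SPIO lungs and 8.28, 7.87, 7.81, 8.34 and 8.67 in 24 h sham lungs, a difference of 0.90 (SE 0.20, adjusted p = 0.00118). The leukocyte surface peptide Cd52 gave 10.49, 10.71, 11.07, 10.50 and 11.38 in 24 h SPIO lungs and 10.19, 9.78, 9.49, 9.88 and 10.46 in 24 h sham lungs, a difference of 0.87 (SE 0.19, adjusted p = 0.00097). Sham array 5 lay inside the SPIO range of Ncf4, and Cd52 was parted by a narrow gap between SPIO array 1 and sham array 5.

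Treml2, a receptor of myeloid and B cells, read 6.61, 6.21, 6.61, 6.65 and 7.01 in 24 h SPIO lungs and 6.36, 5.18, 5.39, 5.91 and 5.80 in 24 h sham lungs, a difference of 0.89 (SE 0.17, adjusted p = 0.000215). Acap1, which acts in recycling of integrins, gave 7.24, 8.01, 7.38, 7.41 and 7.80 in 24 h SPIO lungs and 7.29, 6.24, 6.04, 6.62 and 6.99 in 24 h sham lungs, a difference of 0.93 (SE 0.22, adjusted p = 0.0015). In both genes sham array 1 lay inside the SPIO range. Fndc10 read 6.50, 7.04, 6.77, 6.80 and 6.62 in 24 h SPIO lungs and 5.97, 6.03, 5.62, 5.82 and 5.78 in 24 h sham lungs, a difference of 0.90 (SE 0.12, adjusted p = 8.89e-07), without overlap.

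Called lower at 24 h and against each of the other 5 sham groups were 54 genes, and called higher in all of them were 9, among them Gpnmb, P2rx7, Cbx6 and Igsf8. Of the 12 lower genes given next, none was called in 24 h SPIO lungs against the other 5 SPIO groups. With them moved a measure of the control transcripts: the signal at the 3′ end of Actb minus that at its 5′ end averaged 0.79 in 24 h SPIO lungs and 0.68 in 24 h sham lungs, 0.73 to 0.91 in the other SPIO groups and 0.60 to 0.68 in the other sham groups. Its part in these differences was not tested beyond a fit with that measure as a covariate, in which 4207 genes were called at 24 h and 351 against both sets of sham arrays, in place of 4356 and 602.

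Nipbl, which loads cohesin onto chromosomes, read 8.81, 8.61, 7.77, 8.81 and 8.44 in 24 h SPIO lungs and 9.77, 9.88, 9.80, 9.90 and 9.87 in 24 h sham lungs, a difference of -1.36 (SE 0.18, adjusted p = 8.89e-07). The groups did not overlap and SPIO array 3 was the lowest. The group means of Nipbl at 0, 6, 24, 48, 96 and 168 h were 9.06, 8.51, 8.49, 8.74, 8.40 and 8.21 in SPIO lungs and 9.90, 9.77, 9.84, 9.78, 9.72 and 9.68 in sham lungs, which did not overlap. The endosomal adaptor Rufy2 gave 5.25, 4.75, 4.51, 4.81 and 4.38 in 24 h SPIO lungs and 6.02, 6.48, 5.78, 6.12 and 5.99 in 24 h sham lungs, a difference of -1.34 (SE 0.20, adjusted p = 6.33e-06). Jund, a subunit of the transcription factor AP-1, read 11.88, 11.99, 11.23, 11.77 and 11.19 in 24 h SPIO lungs and 12.51, 12.60, 12.66, 12.70 and 12.64 in 24 h sham lungs, a difference of -1.01 (SE 0.15, adjusted p = 8.78e-06). Jund was the first of 26 immediate early genes, of which 2 were lower (7.69%, against 3.66% of all genes) and 0 higher at 24 h, and 5 were lower after centring. Its means over the 6 times were 12.11, 11.60, 11.61, 11.60, 11.32 and 11.37 in SPIO lungs and 12.51, 12.50, 12.62, 12.35, 12.50 and 12.33 in sham lungs.

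The splicing factor relative Scaf11 gave 9.44, 9.34, 8.46, 9.39 and 7.14 in 24 h SPIO lungs and 9.58, 9.997, 10.13, 10.03 and 10.06 in 24 h sham lungs, a difference of -1.20 (SE 0.31, adjusted p = 0.00377). Zc3h15, a zinc finger protein, read 10.20, 9.95, 9.21, 10.06 and 8.88 in 24 h SPIO lungs and 10.49, 10.90, 11.01, 10.90 and 10.82 in 24 h sham lungs, a difference of -1.16 (SE 0.21, adjusted p = 0.000103). SPIO arrays 3 and 5 were the lowest in both. Zbed6, a repressor of Igf2 derived from a transposon, gave 6.98, 6.83, 5.97, 6.98 and 5.62 in 24 h SPIO lungs and 6.93, 7.73, 7.66, 7.80 and 7.69 in 24 h sham lungs, a difference of -1.08 (SE 0.26, adjusted p = 0.0016), with sham array 1 among the SPIO values. Nktr, a cyclophilin-like protein, read 8.32, 7.92, 7.17, 8.08 and 7.32 in 24 h SPIO lungs and 8.64, 8.62, 8.84, 8.84 and 9.08 in 24 h sham lungs, a difference of -1.04 (SE 0.21, adjusted p = 0.000277). Whamm, an actin nucleation factor of the Golgi, gave 6.75, 6.41, 5.29, 6.79 and 5.92 in 24 h SPIO lungs and 6.89, 7.23, 7.36, 7.55 and 7.30 in 24 h sham lungs, a difference of -1.03 (SE 0.25, adjusted p = 0.00175). SPIO array 3 was the lowest in Nktr and Whamm, and the groups did not overlap.

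Sntb2, a syntrophin of the membrane skeleton, read 7.90, 7.82, 6.88, 8.16 and 7.51 in 24 h SPIO lungs and 8.45, 8.93, 8.70, 8.87 and 8.36 in 24 h sham lungs, a difference of -1.01 (SE 0.22, adjusted p = 0.000624). Smc4, a condensin subunit, gave 9.82, 9.66, 8.94, 9.81 and 9.33 in 24 h SPIO lungs and 10.27, 10.42, 10.63, 10.71 and 10.68 in 24 h sham lungs, a difference of -1.03 (SE 0.18, adjusted p = 4.75e-05). Neither overlapped. Far1, which reduces fatty acids to alcohols for ether lipids, read 9.67, 9.03, 8.94, 9.13 and 8.85 in 24 h SPIO lungs and 10.28, 10.17, 10.51, 10.36 and 10.76 in 24 h sham lungs, a difference of -1.29 (SE 0.20, adjusted p = 1.97e-05), and its sham lungs of 24 h were above the other sham groups by 0.55 (adjusted p = 0.00794). The nuclear noncoding RNA Malat1 gave 13.84, 13.56, 13.04, 13.25 and 10.24 in 24 h SPIO lungs and 14.14, 14.13, 13.94, 14.14 and 14.17 in 24 h sham lungs, a difference of -1.32 (SE 0.42, adjusted p = 0.0184). The value rested on SPIO array 5, and without it the difference was -0.68 (adjusted p = 0.175).

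**Figure D5:**
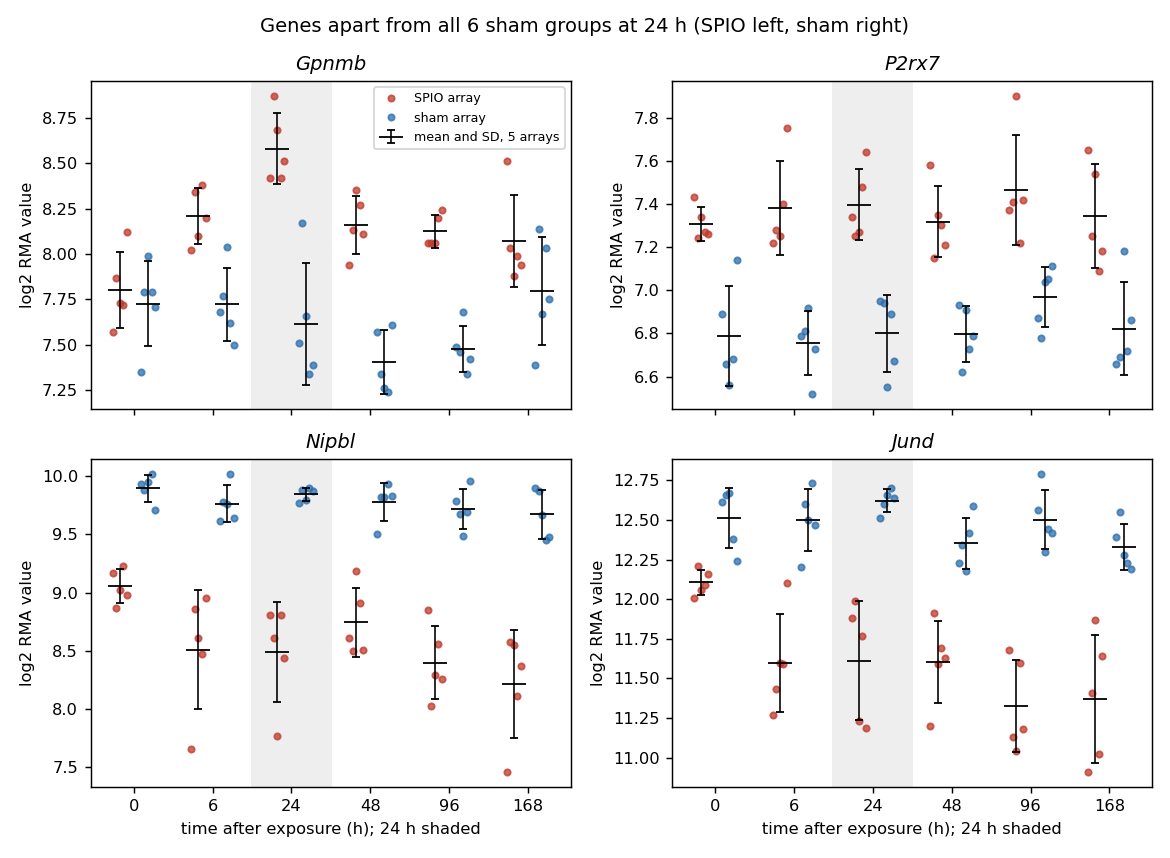
Log2 RMA values of Gpnmb, P2rx7, Nipbl and Jund on all 60 arrays by time after exposure in h, with SPIO arrays (red) left of sham arrays (blue) and the mean and SD of 5 arrays as black bars. Gpnmb is highest in the 24 h SPIO group, with arrays between 8.42 and 8.87, whereas in P2rx7, Nipbl and Jund the SPIO and sham means are apart at each time.

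Of the higher genes called against each sham group, Gpnmb had its highest mean at 24 h. Its means at 0, 6, 24, 48, 96 and 168 h were 7.80, 8.21, 8.58, 8.16, 8.12 and 8.07 in SPIO lungs and 7.73, 7.72, 7.61, 7.40, 7.48 and 7.80 in sham lungs. It was also called against the other 5 SPIO groups, by 0.51 (adjusted p = 0.0143), but not without SPIO array 2 (0.43, adjusted p = 0.114) or 3 (0.48, adjusted p = 0.0748), and its difference at 24 h was larger than the mean difference of the other times, by 0.52 (adjusted p = 0.0326). P2rx7 showed no such peak, with means over the 6 times of 7.31, 7.38, 7.40, 7.32, 7.46 and 7.34 in SPIO lungs and 6.79, 6.75, 6.80, 6.79, 6.97 and 6.82 in sham lungs. The Polycomb protein gene Cbx6 read 10.12, 10.34, 10.13, 10.23 and 10.20 in 24 h SPIO lungs and 9.73, 9.87, 9.90, 9.85 and 9.59 in 24 h sham lungs, a difference of 0.42 (SE 0.06, adjusted p = 9.8e-06). Igsf8, a partner of tetraspanins, gave 7.71, 7.83, 7.79, 7.97 and 7.51 in 24 h SPIO lungs and 7.33, 7.50, 7.01, 7.12 and 7.09 in 24 h sham lungs, a difference of 0.55 (SE 0.09, adjusted p = 2.92e-05). Igsf8 was parted by a narrow gap, and the other SPIO groups had means of 10.11 to 10.27 in Cbx6 and 7.51 to 7.77 in Igsf8. Of the 23 genes that set the 24 h SPIO lungs apart from the other SPIO groups, 7 were among the genes called against both sets of sham arrays, and besides Gpnmb and Gbp2b these included Nat8l, which makes N-acetylaspartate. Nat8l read 6.18, 6.23, 6.15, 6.01 and 6.41 in 24 h SPIO lungs and 5.65, 6.08, 5.83, 5.61 and 5.82 in 24 h sham lungs, a difference of 0.40 (SE 0.11, adjusted p = 0.00437), and lay above the other SPIO groups by 0.37 (adjusted p = 0.0276), a call lost without SPIO array 1, 2, 3 or 5 (adjusted p = 0.0762 to 0.132).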

How the data were processed

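Lung RNA of 60 mice in 12 groups of 5 was hybridized by the authors to Affymetrix GeneChip mouse genome arrays, 1 mouse per array. The deposited values are log2 values that the authors made with RMA, a method that corrects background, quantile-normalizes the arrays and summarizes each probe set; no version of RMA is stated. All columns matched a sample (0 unmatched). Replicates are separate mice. Arrays have no read depth, and precision is set by how many there were.

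Of 45101 probe sets, 64 controls were left out, 34945 carried 1 gene symbol, 932 several and 9160 none. Each of 18193 genes was represented by its brightest probe set on average over the 60 arrays. limma 3.58.1 (R 4.3.3) fitted 1 linear model over the 12 groups with empirical Bayes moderation, and Benjamini-Hochberg adjusted p under 0.05 over all genes was the threshold, with no minimum fold. An exact two-sided permutation test of 5 against 5 has 252 splits and cannot go below 0.0079. The fit was tested on simulated data. Tables and figures used Python 3.11.15, pandas 2.3.3, numpy 2.4.6, scipy 1.17.1 and matplotlib 3.10.9.

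Members and the 49 gene lists were chosen with earlier results of these data known. The genes eligible to be named were the 12 largest higher and lower differences without overlap, the 12 largest called against both sets of sham arrays with a mean outside the other sham range, the 5 smallest p of each list, and 11 genes set by name. The 11 were targets that the study names or lists, with Hmox1 added here, and Gdf15 among them was not analysed. These rules gave 276 genes, and those given with values were chosen among them, and a few others, after their values were seen. Alternatives covered probe set choice, filtering, normalization, moderation, weights, a replicate block, fold minima, the 24 h arrays alone, the methods' test (unequal variance) and leaving out each array. Scaling to 1 interquartile range, and the interquartile range or the Actb 3′ minus 5′ difference as a covariate, were chosen after seeing the data. Some genes of these lists were not analysed here.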

Additional observations from a re-analysis of the deposited data

Results flagged for a closer look

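Within a group of 5 arrays, 19 of 262 tested sets of values held an array far from the others by Dixon's test, 7 in the 24 h SPIO group and 12 in the 24 h sham group. Chance alone gives about 1 in 20 groups. The 24 h SPIO arrays far from the rest were in Ahsa2 on array 1 (10.51, with 9.59 as the nearest value), Mki67 on array 3 (6.29, with 6.82 as the nearest value), Cd68 on array 4 (9.06, with 9.54 as the nearest value) and Hmox1 on array 1 (8.51, with 8.08 as the nearest value). Others of that group were in Mvk on array 1 (7.21, with 7.55 as the nearest value), Malat1 on array 5 (10.24, with 13.04 as the nearest value) and Atp6v0a1 on array 2 (7.76, with 7.50 as the nearest value). The 24 h sham arrays far from the rest were in Hspa1a on array 5 (10.49, with 11.92 as the nearest value), F13a1 on array 5 (10.57, with 8.93 as the nearest value), Cd68 on array 2 (9.83, with 8.66 as the nearest value) and Cxcl2 on array 5 (6.05, with 5.20 as the nearest value). Others of that group were in Cxcl15 on array 2 (13.49, with 13.29 as the nearest value), Steap3 on array 2 (8.24, with 7.43 as the nearest value), Arntl on array 2 (5.36, with 5.96 as the nearest value) and Malat1 on array 3 (13.94, with 14.13 as the nearest value). Others of that group were in Scaf11 on array 1 (9.58, with 10 as the nearest value), Zbed6 on array 1 (6.93, with 7.66 as the nearest value), Hlf on array 1 (8.68, with 9.02 as the nearest value) and Mmp14 on array 2 (7.53, with 7.11 as the nearest value).

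For 838 genes the SPIO minus sham difference at 24 h differed from the mean difference of the other 5 times in the interaction term of the limma fit, and 53 of them are named above. The difference at 24 h minus that mean was below 0 in Hspa1a -2.53, Hspa1b -2.39, Hmox1 -1.16, Cacybp -0.95, Chordc1 -0.89, Dnaja1 -0.85, Aco1 -0.78, Bag3 -0.71 and Cat -0.69. It was smaller in size in Dnajb9 -0.52. The difference at 24 h minus that mean was above 0 in Ifitm6 2.08, F13a1 1.76, Ms4a6c 1.38, Acod1 1.14, Rrm2 1.11, Emilin2 1.11, S100a4 1.10, Msr1 1.10 and Ccl9 1.09. It was smaller in size in Mki67 1.02, Top2a 0.99, Adcyap1r1 0.94, Plac8 0.92, Hal 0.92, Sstr4 0.91, Ripor2 0.88, Clec5a 0.85 and Ptpro 0.85. It was smaller in size in Lst1 0.84, Kctd14 0.77, Ncf4 0.76, Pycard 0.71, Gbp2b 0.69, Fbln1 0.68, Fcer1g 0.67, Treml2 0.66 and Mcm5 0.64. It was smaller in size in Fcgr2b 0.64, Tk1 0.60, Oas1a 0.59, Cdt1 0.57, Gpnmb 0.52, Usp18 0.51, Fndc10 0.50, Mvk 0.50 and Mx1 0.48. It was smaller in size in Ccl22 0.43, Atp6v0a1 0.43, Mmp14 0.43, Nat8l 0.41, Psmd13 0.38, Rrm1 0.28 and Psap 0.26. These calls depend on single arrays of both groups. Without sham array 3, 27 genes differed in this way, and without sham array 2, 1770 did. Without SPIO arrays 2, 3, 1 and 4 the counts were 148, 301, 456 and 486.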

How the results depend on the processing

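Calls at 24 h numbered 4356 and moved to 7378 with all probe sets, 528 at 1.5-fold, 69 at 2-fold, 2420 with the 24 h arrays alone and 2103 with the methods' test. Genes called against both sets of sham arrays (602) became 1817 with all probe sets, 1046 after quantile normalization, 70 at 1.5-fold, 9 at 2-fold, 1204 with the interquartile range and 351 with the Actb difference as a covariate, and 63 against each of the 5 groups. Genes of 24 h SPIO against the other sham groups (972) became 3214 with all probe sets, 1597 with the mean of probe sets, 1737 after quantile normalization, 114 at 1.5-fold, 19 at 2-fold, 1663 after interquartile scaling, 1917 and 488 with these covariates, and 1759 against the 48 h sham group alone. Genes of 24 h sham against the other sham groups (5229) became 8803 with all probe sets, 3443 after quantile normalization, 267 at 1.5-fold, 30 at 2-fold and 977 with the interquartile range as a covariate. Genes of 24 h SPIO against the other SPIO groups (23) became 41 with all probe sets, 36 with the filter, 48 after quantile normalization, 35 after centring, 84 with array weights, 4 at 1.5-fold, 0 at 2-fold and 75 with the interquartile range as a covariate. Genes whose 24 h difference departed from the other times (838) became 482 with all probe sets, 268 with the mean of probe sets, 1261 with the filter, 304 after quantile normalization, 152 after centring, 1455 with array weights, 141 at 1.5-fold, 22 at 2-fold, 258 after interquartile scaling, and 26 and 474 with the covariates. The fold minima act by construction, and the cause of the other moves was not tested.

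Leaving out 1 array at a time gave 3099 (sham array 3) to 4786 calls at 24 h, 253 (SPIO array 3) to 614 against both sets, with 300 without SPIO array 2, 387 (SPIO array 3) to 1032 for SPIO against the other sham groups, with 516 and 612 without SPIO arrays 2 and 5, 3069 (sham array 3) to 5842 for sham against the other sham groups, with 3124 without sham array 5, 8 (SPIO array 1) to 32 against the other SPIO groups, and 27 (sham array 3) to 1770 (sham array 2) for the departure from the other times. Centring each array on the median of its genes gave a median difference of -0.09 in place of 0.09, with 827 higher and 2130 lower genes. With the replicate number as a block, 4326 genes were called at 24 h and 580 against both sets. Same-numbered arrays correlated at -0.20, 0.16, -0.04, 0.20 and 0.12 in their deviations from the group means. Values from so few pairs cannot decide whether the numbers pair the mice, which were treated as unpaired.

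The rules for naming gave 209 called genes, of which 156 kept their call without each of the 10 arrays in turn and 53 lost it at least once. Of the 115 called genes given with values, 111 kept it, so these were steadier to leaving out an array than the rules' genes as a whole. Of the 115, 106 kept their call after centring, 108 with the 24 h arrays fitted alone and 109 after interquartile scaling. Apart from Lamp1, those that lost it in these settings are not marked above. Of the 209, 132 kept it after centring (4 turned), 158 after interquartile scaling (5 turned), 173 with the mean of probe sets (1 turned), 177 and 194 with the interquartile and Actb covariates, 194 after quantile normalization and 208 with the block. Lamp1 turned to -0.03 after interquartile scaling. Signals near background limit what low genes can show.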
